A study of Mus musculus with 15 samples.

Results

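The 46 type I interferon-stimulated genes described here are a list of names of known interferon-induced genes. The rule that lists them holds no measured value, but the list was drawn up with earlier results of these data known. All 46 were found among the 22165 genes of the count table, and all 46 were among the 11746 genes that passed the filter on low counts. They were followed in 15 RNA-seq libraries of sorted thymic dendritic cells from C57BL/6 mice, either wild type (WT) or Itgax-cre Stk11 fl/fl (KO). Stk11 encodes the kinase LKB1, and Itgax-cre removes the floxed gene in cells that express Itgax (CD11c), so the deletion is not limited to 1 dendritic cell subset. The series compared cDC1 (WT n = 2, KO n = 2), cDC2 (WT n = 2, KO n = 3) and pDC (WT n = 3, KO n = 3). All mice, WT controls included, were 8 to 12 weeks old and of either sex, and carried subcutaneous B16 melanoma cells that secrete Flt3L, a cytokine that expands dendritic cells. Thymi were taken 9 to 12 days after the injection, and cells were sorted as CD11c+ MHCII+ with CD8a for cDC1 or with CD11b for cDC2, and as Siglec-H+ with intermediate CD11c for pDC. The labels do not say whether the replicates of a group came from separate mice, so the p-values measure the spread between these libraries, which may in part be technical.

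Libraries held 3928164 to 12142712 counts, and the 46 genes took 0.46% to 0.939% of the counts of a library. Fewer genes had a count in the cDC2 WT libraries (10840 and 11500) than in the cDC2 KO libraries (12909 to 13797). The summed level of 10 pDC markers was 34070 to 54000 CPM (counts relative to the library's scaled total) in pDC and at most 1736 CPM in the other libraries. The 10 cDC1 markers summed to 6949 to 10940 CPM in cDC1 against 1965 to 3860 CPM in cDC2, and 10 cDC2 markers to 728.7 to 1030 CPM in cDC2 against 314 to 414.8 CPM in cDC1. Neither cDC list set pDC apart, which were at 6995 to 9575 CPM on the first and 855 to 1013 CPM on the second. Within cDC1, the sum of the cDC1 markers was lower in KO (6949 to 8161 CPM) than in WT (10310 to 10940 CPM). Irf8, the largest part, was at 3077 to 3508 CPM in KO against 4731 to 5698 CPM in WT. Naaa, Cadm1, Cd8a, Clec9a, Itgae and Wdfy4 were also lower, while Xcr1 (401.2 to 861.7 against 468.5 to 658.1 CPM), Batf3 and Tlr3 overlapped. Within cDC2, the sums of the cDC2 markers overlapped between genotypes. Itgam, which encodes CD11b, was at 160.7 to 260.3 CPM in cDC2 KO against 102 to 104.9 CPM in cDC2 WT. Sirpa, Ltb and Clec4a4 were also higher in cDC2 KO, Cd4, Irf4 and Mgl2 were lower, and the others overlapped. Stk11 was at 35.7 and 54.3 CPM in cDC1 WT and 30.6 and 18.4 CPM in cDC1 KO, at 34.2 and 34.9 CPM in cDC2 WT and 36.1, 28.2 and 29.2 CPM in cDC2 KO, and at 66.8, 40.6 and 46.7 CPM in pDC WT and 43.5, 33.2 and 36.6 CPM in pDC KO. The labels do not name the deleted exons, and reads primed at the poly(A) tail check the genotype only if they fall inside them.

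Type I interferons, the interferon-alpha family and interferon-beta, bind a receptor made of IFNAR1 and IFNAR2. The receptor's kinases JAK1 and TYK2 phosphorylate STAT2, which acts with IRF9 in the complex ISGF3. This complex binds the interferon-stimulated response element in promoters and induces a large set of antiviral genes, which are also kept at a basal level by low steady-state signalling. pDC are best known as cells that can release large amounts of type I interferon after their endosomal Toll-like receptors are engaged.

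The response element is what is known to tie such promoters to interferon signalling, so examples are printed ahead of the values. RefSeq promoters (GRCm38.p6, 250 bases before to 50 bases after the start of transcription) were matched by symbol for 34 of the 46 genes. The element was searched as GAAANNGAAA on either strand, and overlapping matches were kept. It was present in at least 1 promoter of 17 of the 34 genes (50%) and of 3.99% of the 27025 genes in the promoter table. With 1 or 2 bases between the GAAA runs, it was present for 22 of 34 genes (64.7%) against 7.27%. The gamma-activated site TTCNNNGAA, an element known from the response to interferon-gamma, was present for 6 of 34 genes (17.6%) against 9.55%. A match describes the letters and is not evidence of a bound site. Ifit1, Isg15 and Rsad2 are shown because their averaged difference between genotypes passed the threshold. The stretches run from 170 to 21 bases before the start, 5′ to 3′ along the gene, at chr19:34640719-34640868 on the plus strand for Ifit1, chr4:156200839-156200988 on the minus strand for Isg15 and chr12:26456473-26456622 on the minus strand for Rsad2, with matches in capitals.
Ifit1: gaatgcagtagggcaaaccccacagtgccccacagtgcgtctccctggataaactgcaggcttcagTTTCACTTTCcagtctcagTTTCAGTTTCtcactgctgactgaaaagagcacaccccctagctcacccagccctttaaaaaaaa
Isg15: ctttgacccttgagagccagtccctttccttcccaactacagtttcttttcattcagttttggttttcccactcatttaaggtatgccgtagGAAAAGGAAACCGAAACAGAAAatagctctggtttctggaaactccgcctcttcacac
Rsad2: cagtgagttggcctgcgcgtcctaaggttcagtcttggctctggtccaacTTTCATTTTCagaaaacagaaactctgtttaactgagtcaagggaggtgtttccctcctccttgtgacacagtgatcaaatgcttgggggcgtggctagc
Ifit1 held 2 separate matches and Rsad2 held 1, all on the strand opposite to the gene (TTTCNNTTTC as printed), whereas Isg15 held 3 overlapping matches on the gene's own strand. Shorter windows with 10 bases on each side show how alike or unlike the matches of other members are: Ifit3 at chr19:34583363-34583426 (plus strand), Ifit3b at chr19:34607759-34607822 (plus strand), Oas3 at chr5:120777715-120777744 (minus strand), Gbp2 at chr3:142620594-142620623 (plus strand), Gbp3 at chr3:142559989-142560024 (plus strand) and Stat2 at chr10:128270266-128270295 (plus strand).
Ifit3: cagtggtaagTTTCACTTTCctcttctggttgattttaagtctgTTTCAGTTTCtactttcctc
Ifit3b: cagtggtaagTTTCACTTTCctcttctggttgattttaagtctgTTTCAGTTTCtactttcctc
Oas3: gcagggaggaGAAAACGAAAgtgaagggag
Gbp2: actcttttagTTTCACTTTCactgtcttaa
Gbp3: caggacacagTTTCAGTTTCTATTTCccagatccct
Stat2: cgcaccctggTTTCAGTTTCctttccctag
The windows of Ifit3 and Ifit3b, neighbouring copies on chromosome 19, were identical letter for letter. Oasl1, Oasl2 and Cmpk2 had no match with the spacing of 2 in this window, and Ifi27l2a, Dhx58, Zbp1, Oas2, Mx1, Mx2 and Ly6e were among the members not matched to the promoter table.

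In WT mice the interferon-stimulated genes were not at one level in the 3 subsets: cDC2 had the highest mean level for 27 of the 46 genes, cDC1 for 11 and pDC for 8, and pDC had the lowest for 28. A level in a sorted pool does not tell apart fewer expressing cells and less RNA per cell. Tests were made with edgeR's quasi-likelihood test over all 11746 genes with Benjamini-Hochberg adjustment and a threshold of 0.05, and log2 differences are given with their standard error. The 3 comparisons of WT subsets share their groups and are not independent of each other.

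Against cDC1 WT, 10 members were higher and 1 was lower in cDC2 WT, where 3.75% of all genes tested were higher and 4.98% lower, and the median log2 difference was 0.56 over the 46 genes and -0.05 over all genes. The IFIT family, whose proteins bind viral RNA, held the member with the smallest p, Ifit1. Ifit1 (chr19:34640871-34650009) was at 12.2 and 15.3 CPM in cDC1 WT, 85.7 and 152.7 CPM in cDC2 WT and 9.77, 12 and 8.84 CPM in pDC WT. Its cDC2 libraries lay well above all others, with a log2 difference of 3.11 ± 0.40 from cDC1 WT (adjusted p = 0.000301) and a log2 difference of -3.55 ± 0.35 for pDC WT minus cDC2 WT (adjusted p = 1.18e-06). Ifit3 was at 1.88 and 5.28 CPM in cDC1 WT, 21.6 and 22.9 CPM in cDC2 WT and 1.82, 1.94 and 0.453 CPM in pDC WT. Its cDC2 WT values did not overlap those of either other subset (log2 difference from cDC1 WT 2.61 ± 0.58, adjusted p = 0.0108). Part of its counts is uncertain, since 14.9% of the 50-base stretches in the last 500 bases of its transcript are shared with Ifit3b.

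Other classes also held members that were higher in cDC2 than in cDC1. Among the oligoadenylate synthetase genes, which make the activator of RNase L or resemble the enzymes that do, Oasl2 was at 9.15 and 10.6 CPM in cDC1 WT and 30.1 and 78.6 CPM in cDC2 WT (log2 difference 2.47 ± 0.52, adjusted p = 0.00838). Oas2 differed by 3.31 ± 0.86 (adjusted p = 0.024) from a low level of 0.235 and 1.64 CPM in cDC1 WT. Both genes had cDC2 WT libraries that were unlike each other, with replicate 2 the higher. Of the GTPases, Gbp3 was at 3.75 and 8.56 CPM in cDC1 WT, 50.02 and 23.8 CPM in cDC2 WT and 27.0, 21.7 and 34.6 CPM in pDC WT. Its cDC1 libraries were below those of both other subsets (log2 differences of 2.56 ± 0.53 for cDC2 and 2.15 ± 0.50 for pDC, adjusted p = 0.00838 and 0.00369). The RNA sensor Ifih1, which encodes MDA5, was at 39.4 and 73.7 CPM in cDC1 WT and 238.2 and 144.7 CPM in cDC2 WT (1.76 ± 0.43, adjusted p = 0.0186). Ly6e, a GPI-anchored surface protein, was the 1 member lower in cDC2 WT: it was at 1124 and 962.1 CPM in cDC1 WT, 483.7 and 461 CPM in cDC2 WT and 1231, 1025 and 984.7 CPM in pDC WT (cDC2 minus cDC1 -1.14 ± 0.26, adjusted p = 0.0115, a call that ended once length and GC content were offset). The count of 11 members depended on each of the 4 WT libraries compared: it was 1 without cDC1 WT replicate 1, 7 without cDC1 WT replicate 2, 7 without cDC2 WT replicate 1 and 4 without cDC2 WT replicate 2. Each of these fits leaves a group of 1 library, which is assumed to vary like the other groups.

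pDC WT were the low end for most of the set. Against cDC2 WT, 25 members were lower and 2 were higher (12.2% and 11.4% of all genes), and the median log2 difference was -1.28 over the 46 genes and 0.07 over all genes. The 25 included 4 of 4 IFIT genes, 5 of 5 OAS genes and 6 of 9 sensors of nucleic acids. The level of Oas1a is uncertain, as 56.1% of the stretches at its 3′ end are shared with Oas1g. Without cDC2 WT replicate 2 the count of 27 was 16. Against cDC1 WT, 10 members were lower and 3 higher (14.8% and 12.8% of all genes). Parp12, a mono-ADP-ribosyltransferase gene, was at 34.9 and 58.8 CPM in cDC1 WT and 3.13, 5.29 and 0.907 CPM in pDC WT (-3.92 ± 0.61, adjusted p = 0.000129). Isg15, which encodes a ubiquitin-like protein that is joined to other proteins, was at 61.9 and 73.5 CPM in cDC1 WT, 43.0 and 64.6 CPM in cDC2 WT and 21.5, 17.6 and 18.8 CPM in pDC WT (pDC minus cDC1 -1.81 ± 0.35, adjusted p = 0.000844). Dhx58, which encodes the RNA-binding helicase LGP2, was at 33.1 and 47.5 CPM in cDC1 WT and 11.1, 4.39 and 8.16 CPM in pDC WT (-2.36 ± 0.40, adjusted p = 0.000302). In these 3 genes no pDC WT library reached a cDC1 WT library.

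Some members went the other way in pDC. Trim30a, a RING-domain protein of the TRIM family, was at 893.7 and 1219 CPM in cDC1 WT, 1245 and 870.4 CPM in cDC2 WT and 1929, 2392 and 1350 CPM in pDC WT. Every pDC WT library was above every cDC WT library, with log2 differences of 0.84 ± 0.29 from either cDC subset (adjusted p = 0.0408 and 0.0464), and the call against cDC2 WT ended with RLE scaling, limma voom, no filter, fewer subsets and a replicate block, that against cDC1 WT with no filter, fewer subsets and the same offsets. Ifi203, a gene of the p200 family of DNA-binding proteins, was higher in pDC WT (755.7, 942 and 710 CPM) than in cDC1 WT (191.6 and 451.6 CPM; 1.32 ± 0.41, adjusted p = 0.0241). Its relatives Ifi204 and Ifi211 were lower: Ifi211 was at 129.4 and 201.5 CPM in cDC1 WT and 11.6, 20.6 and 6.12 CPM in pDC WT (-3.70 ± 0.41, adjusted p = 3.23e-06). The level of Ifi211 is uncertain, as 77.4% of the stretches at its 3′ end are shared with Ifi205 and Mndal, and Ifi203 overlaps Mndal by 37 bases.

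**Figure D1:**
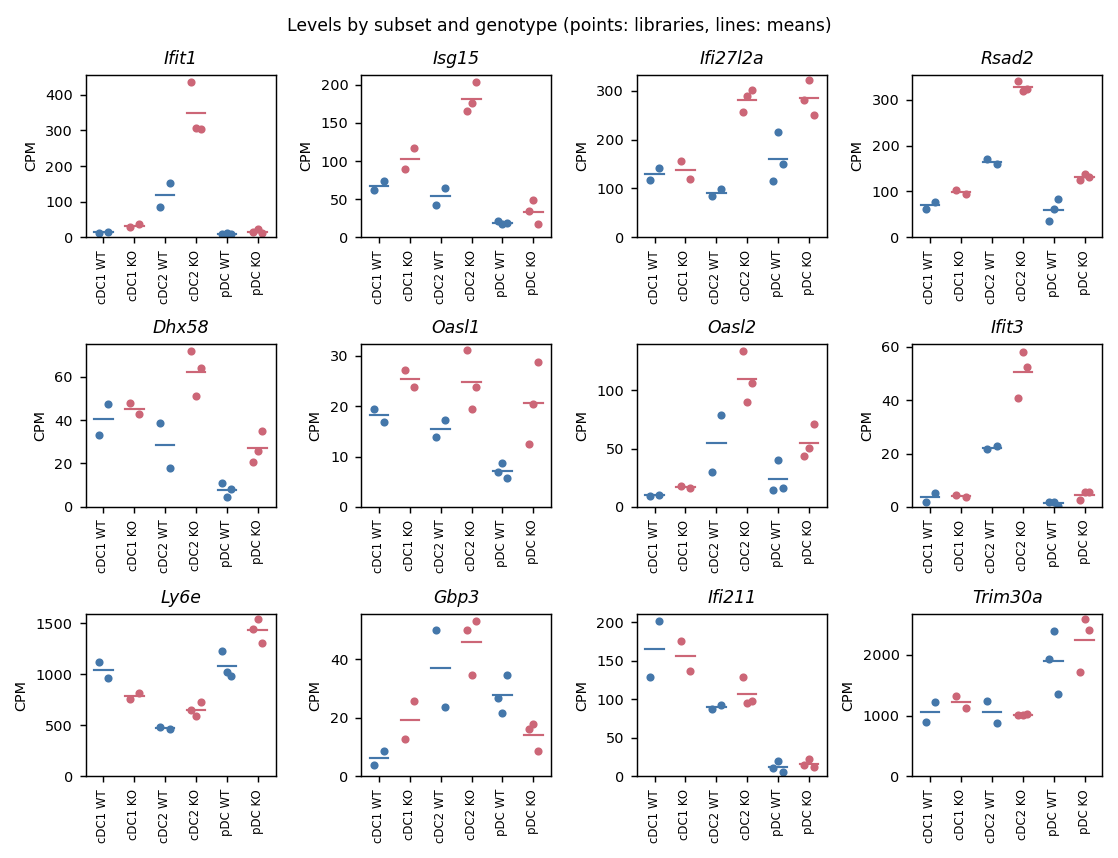
Level of 12 interferon-stimulated genes (CPM, linear axis from 0) in the 6 groups, with 1 point per library, lines at group means, WT in blue and KO in red. The cDC2 KO libraries of Ifit1 sit between 303.5 and 435.4 CPM, above every other library, while Trim30a is highest in pDC.

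Across genotypes, averaged with equal weight over the 3 subsets, 44 of the 46 log2 differences of KO minus WT were positive, against 56.2% of all genes, and their median was 0.44 against 0.05. Of the 46, 4 passed the threshold and all 4 rose in KO: Ifit1, Isg15, Ifi27l2a and Rsad2 (0.238% of all genes rose and 0.0681% fell). At an unadjusted p under 0.05, 16 were higher and 0 lower (6.86% and 3.34% of all genes). No test over the set as a whole was made. Over cDC1 and pDC only, 0 members passed in edgeR.

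Ifit1 was at 12.2 and 15.3 CPM in cDC1 WT and 29.3 and 36.6 CPM in cDC1 KO, at 85.7 and 152.7 CPM in cDC2 WT and 435.4, 306.1 and 303.5 CPM in cDC2 KO, and at 9.77, 12 and 8.84 CPM in pDC WT and 15, 22.2 and 11.03 CPM in pDC KO. Both conventional subsets separated by genotype and pDC overlapped between 11.03 and 12 CPM. The averaged log2 difference was 1.15 ± 0.20 (2.23-fold, adjusted p = 0.0196). Isg15 (chr4:156199424-156200818) was at 89.1 and 117.8 CPM in cDC1 KO, 165.9, 175.8 and 204.2 CPM in cDC2 KO and 34.5, 48.9 and 17.5 CPM in pDC KO, beside the WT values above. Its KO libraries lay above the WT libraries in cDC1 and cDC2, and 1 pDC KO library lay below all pDC WT libraries. The averaged difference was 1.06 ± 0.21 (2.08-fold, adjusted p = 0.0363).

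Ifi27l2a (chr12:103442167-103443680), a small interferon-induced gene of the IFI27 family, was at 116.3 and 141.8 CPM in cDC1 WT and 155.3 and 119.2 CPM in cDC1 KO, at 83.8 and 98.4 CPM in cDC2 WT and 256.1, 288.7 and 300.6 CPM in cDC2 KO, and at 115.4, 216.2 and 149.8 CPM in pDC WT and 279.8, 321 and 250.9 CPM in pDC KO. The genotypes overlapped in cDC1 and were apart in cDC2 and pDC (averaged difference 0.85 ± 0.17, 1.80-fold, adjusted p = 0.0363). Rsad2 (chr12:26442746-26456452) encodes viperin, a radical SAM enzyme that makes an antiviral nucleotide. It was at 61.0 and 78.1 CPM in cDC1 WT and 102.4 and 93.8 CPM in cDC1 KO, at 171.4 and 158.8 CPM in cDC2 WT and 339.4, 318.2 and 324.1 CPM in cDC2 KO, and at 36.7, 61.4 and 82.6 CPM in pDC WT and 124, 138 and 131.2 CPM in pDC KO. Every KO library was above every WT library of its subset (averaged difference 0.87 ± 0.17, 1.82-fold, adjusted p = 0.0364). These 4 calls depended on single libraries: with 1 of the 15 libraries left out in turn, Ifit1 passed in 8 fits, Isg15 and Rsad2 in 3 each and Ifi27l2a in 2. No member passed without cDC2 KO replicate 1, cDC2 KO replicate 2, cDC2 WT replicate 1 or any of the 4 cDC1 libraries. RLE scaling ended the call of Rsad2, offsets for length and GC content kept Ifit1 alone, and a replicate block kept 0 of the 4. All 4 differences stayed positive in the 15 fits with 1 library left out, between 0.78 and 1.32 on the log2 scale.

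**Figure D2:**
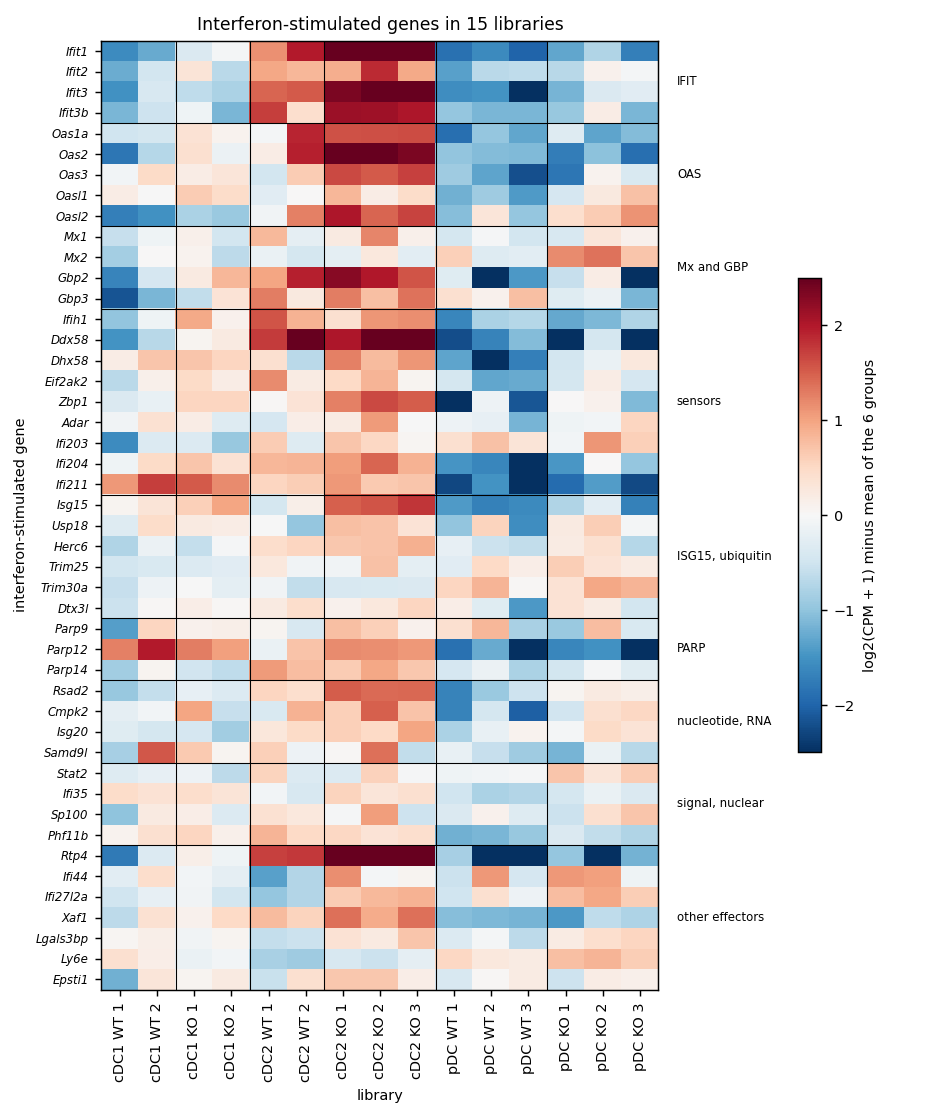
Deviation of log2(CPM + 1) from the mean of the 6 groups for the 46 genes (rows, in classes by role) in the 15 libraries (columns). Values beyond the ends of the colour scale take its end colours. Computed apart from the colours, on log2 CPM with a prior count of 2, the median deviation is 0.76 to 0.95 in the cDC2 KO libraries. In the pDC WT libraries it is -0.97 to -0.56.

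In cDC2, 39 of the 46 differences were positive (55.3% of all genes), with a median of 0.50 against 0.09 for all genes. Ifi27l2a was the 1 member that passed the threshold, and it rose in KO (log2 difference 1.63 ± 0.30, 3.09-fold, adjusted p = 0.0496; 0.0851% of all genes rose and 0.0341% fell). That call ended in 11 of 15 fits with 1 library left out (each of the 5 cDC2, 4 cDC1 and 2 pDC libraries, pDC KO replicates 1 and 2) and with RLE scaling, under which 2 of all genes rose and 3 fell instead of 10 and 4. It also ended with limma voom, a fit on the cDC2 libraries alone, a spread without robust estimation, the length and GC offsets and a replicate block. At an unadjusted p under 0.05, 13 members were higher and 0 lower (9.47% and 3.85% of all genes). For 25 members every KO library was above every WT library and for 0 below (23.1% and 11.7% of all genes). Isg15 and Ifit1 had the next smallest p, with differences of 1.76 ± 0.37 (adjusted p = 0.0582) and 1.55 ± 0.35 (adjusted p = 0.0692). Lgals3bp, a secreted glycoprotein, was at 47.1 and 49.0 CPM in WT and 92.9, 83.6 and 116.6 CPM in KO (1.02 ± 0.28, adjusted p = 0.149). Ifi44 was at 44.2 and 68.5 CPM in WT and 258.3, 111.5 and 121 CPM in KO (1.53 ± 0.52, adjusted p = 0.228). The cDC2 WT libraries were also those with fewer genes detected, and the part of this in the differences was not tested. The negative end was shallow: Phf11b, whose level is uncertain because 42.6% of its 3′ stretches are shared with Phf11a, Phf11c and Phf11d, was at -0.26 ± 0.27, Ifih1 at -0.34 ± 0.38 and Eif2ak2, the kinase PKR, at -0.26 ± 0.38.

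In pDC, 39 of 46 differences were positive (49.0% of all genes), with a median of 0.54 against 0 for all genes, and 0 members passed the threshold in edgeR (0.0681% of all genes passed in either direction). DESeq2 called 3 members and limma voom 0. At an unadjusted p under 0.05, 15 were higher and 1 lower (5.08% and 5.52% of all genes), and 15 had every KO library above every WT library and 1 below (5.76% and 5.58% of all genes). Dhx58 had the smallest p: it was at 11.1, 4.39 and 8.16 CPM in WT and 20.8, 25.8 and 35.0 CPM in KO (1.79 ± 0.37, adjusted p = 0.12). Oasl1, known as a brake on IRF7 translation, was at 6.90, 8.77 and 5.78 CPM in WT and 12.5, 20.4 and 28.9 CPM in KO (1.52 ± 0.35, adjusted p = 0.16). Both genes separated the genotypes completely, as did Rsad2 (1.12 ± 0.27, adjusted p = 0.166) and Ifi27l2a (0.82 ± 0.26, adjusted p = 0.296). Ifit3 was at 2.70, 5.42 and 5.78 CPM in KO (1.72 ± 0.50, adjusted p = 0.267). Ifi204, a DNA sensor of the p200 family, was at 18.8, 16.8 and 8.5 CPM in WT and 18.9, 54.6 and 27.0 CPM in KO (1.19 ± 0.38, adjusted p = 0.311). Ifit3b, though among the 39 positive members, could not be compared here, since its counts were 1, 0 and 0 in WT and 1, 11 and 0 in KO. Gbp3 lay at the other end, with 27.0, 21.7 and 34.6 CPM in WT and 16.04, 18.1 and 8.58 CPM in KO (-0.96 ± 0.40, adjusted p = 0.425), and was the 1 member whose KO libraries were all below WT.

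In cDC1, 35 of 46 differences were positive (50.0% of all genes), with a median of 0.21 against 0 for all genes, and 0 members passed the threshold in edgeR, DESeq2 or limma voom (0.0255% of all genes in edgeR). At an unadjusted p under 0.05, 4 members were higher and 0 lower (3.04% and 0.792% of all genes): Ifit1 (1.26 ± 0.38, adjusted p = 0.858), Gbp3 (1.62 ± 0.52), Ifih1 (1.08 ± 0.43) and Oas2 (1.94 ± 0.86). For 16 members every KO library was above every WT library and for 1 below (19.3% and 17.8% of all genes). Gbp3 was at 3.75 and 8.56 CPM in WT and 12.8 and 25.7 CPM in KO, apart in the direction opposite to pDC. Ly6e was at 1124 and 962.1 CPM in WT and 759.8 and 815.3 CPM in KO (-0.41 ± 0.25), and was the 1 member below. The cDC1 pattern rested on cDC1 WT replicate 1, whose median deviation from the 6-group mean over the members was -0.57, against -0.03 in replicate 2 and 0.17 and 0.06 in KO. Without it, 20 of 46 differences were positive with a median of -0.04, and without replicate 2, 40 were positive with a median of 0.66.

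**Figure D3:**
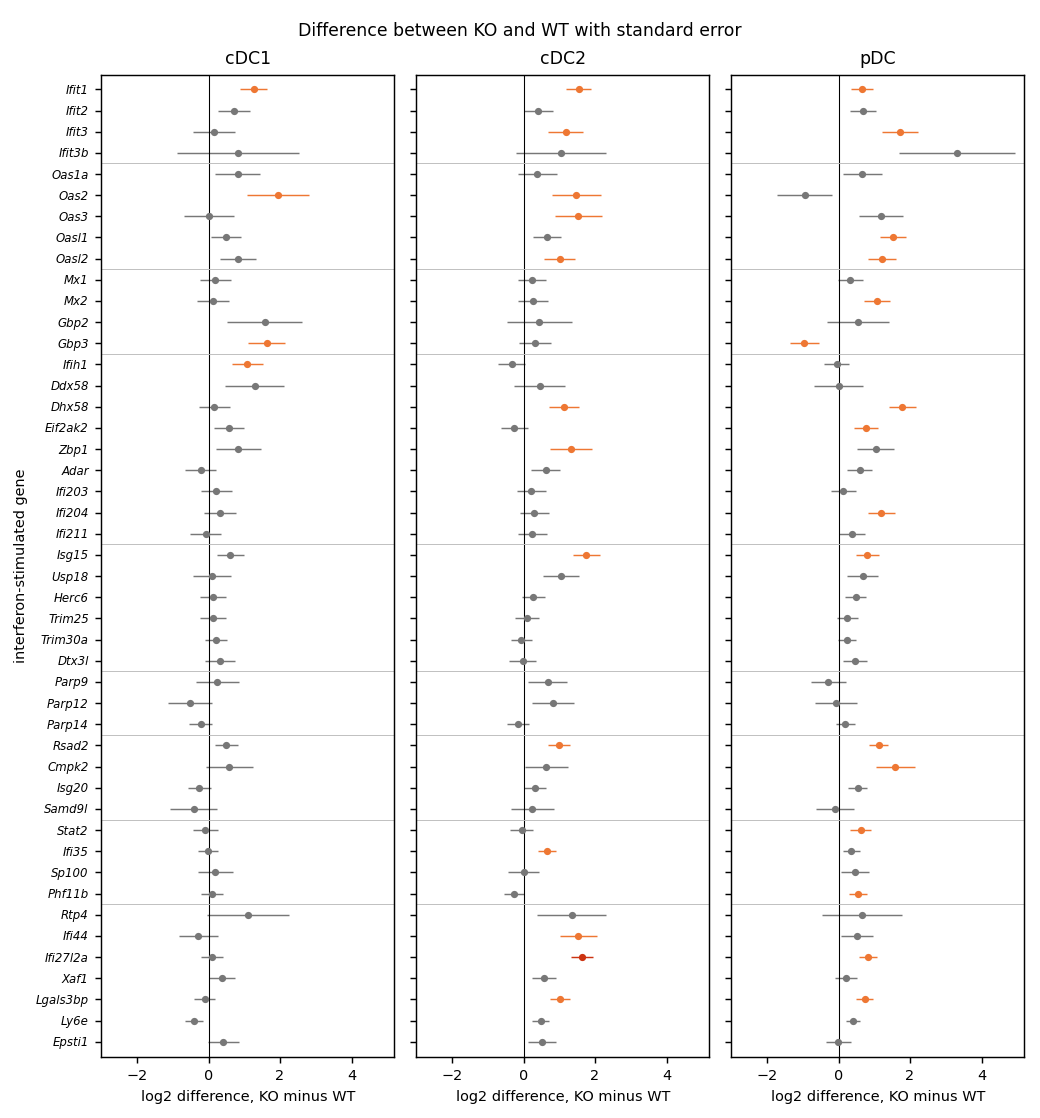
Log2 difference of KO minus WT with its standard error for the 46 genes (rows, ordered by role) in cDC1, cDC2 and pDC. Red marks an adjusted p under 0.05 (Ifi27l2a in cDC2), orange an unadjusted p under 0.05 (4, 13 and 16 genes with the red one counted) and grey all others.

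By role, the IFIT genes had positive differences in every subset (4 of 4). Their medians were 0.77 in cDC1, 1.11 in cDC2 and 1.21 in pDC. These include Ifit3b at counts too low for a comparison in cDC1 and pDC. It had 3 counts in cDC1 WT and 8 in cDC1 KO, and 1 in pDC WT and 12 in pDC KO. The OAS genes were positive in 5 of 5, 5 of 5 and 4 of 5, the exception being Oas2 in pDC, which was at most at 1.17 CPM there. Among them, Oas3 in cDC1 was at 0.013, and the level of Oas1a is uncertain because 56.1% of its 3′ stretches are shared with Oas1g. The ISG15 and ubiquitin class was positive in 6 of 6, 4 of 6 and 6 of 6, with medians of 0.17, 0.19 and 0.47. Within it, Usp18, which removes ISG15 and dampens the receptor, had differences of 0.09 ± 0.53, 1.05 ± 0.50 and 0.68 ± 0.43 and did not pass in any subset. Mx1, a gene of the dynamin-like GTPase family, was at 57.0 and 78.6 CPM in cDC1 WT and 93.01 and 61.6 CPM in cDC1 KO. The differences of Mx1 RNA were 0.19 ± 0.43, 0.23 ± 0.39 and 0.33 ± 0.35, and its protein was not measured. The nucleic acid sensors were positive in 7 of 9, 7 of 9 and 8 of 9. The PARP genes Parp9, Parp12 and Parp14 were at 0.245, -0.519 and -0.223 in cDC1. They were at 0.669, 0.832 and -0.155 in cDC2 and at -0.292, -0.059 and 0.183 in pDC, and did not pass in any subset. Parp14 was at -0.07 ± 0.17 on average. Stat2, the interferon-specific STAT, was at -0.10 ± 0.35, -0.06 ± 0.32 and 0.62 ± 0.28, with 224.2, 229.8 and 234.6 CPM in pDC WT and 387.2, 297.4 and 371.8 CPM in pDC KO.

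Over the 3 subsets together, 26 of 46 members (56.5%) had a positive difference in all 3, against 13.7% of all genes, and 0 were negative in all 3, against 11.1%. Leaving out 1 library or changing the fit gave 14 to 29, with 14 without cDC1 WT replicate 1. The 26 include Ifit3b, whose counts in cDC1 and pDC were too low for a comparison. The KO libraries were above all WT libraries of the same subset in every subset for 3 members (6.52%), against 0.443% of all genes: Oasl1, Oasl2 and Rsad2. Oasl1 was at 19.5 and 16.9 CPM in cDC1 WT and 27.2 and 23.8 CPM in cDC1 KO, and at 13.8 and 17.3 CPM in cDC2 WT and 31.1, 19.6 and 23.8 CPM in cDC2 KO. Oasl2 was at 18.2 and 16.5 CPM in cDC1 KO, 133.2, 89.8 and 105.7 CPM in cDC2 KO, 14.7, 39.99 and 15.98 CPM in pDC WT and 43.5, 50.5 and 71.1 CPM in pDC KO. Their averaged differences were 0.89 ± 0.23 and 1.01 ± 0.26, and neither passed (adjusted p = 0.14 and 0.146).

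**Figure D4:**
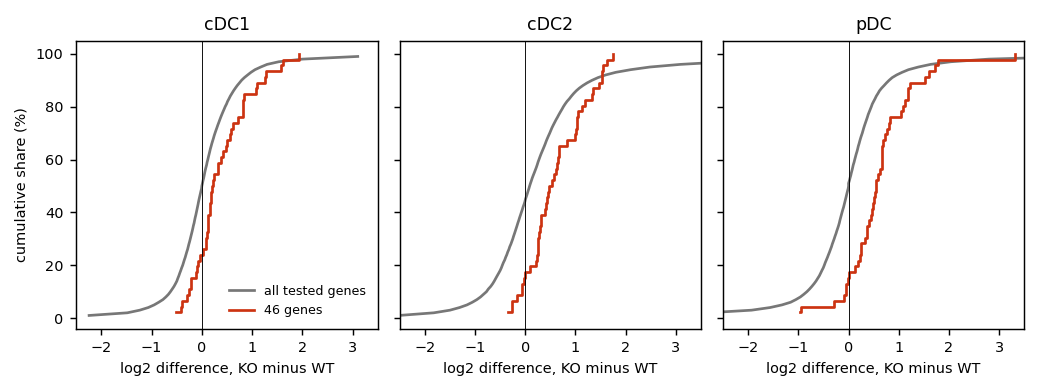
Cumulative share of genes by log2 difference of KO minus WT in each subset, for the 46 genes (red steps) and all 11746 genes tested (grey, drawn from percentiles). The red steps lie to the right of the grey curve over most of the range, with medians of 0.21, 0.50 and 0.54 against 0, 0.09 and 0.

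Whether the genotype difference itself differed between subsets was tested by interaction contrasts, and 0 members passed in any of the 3 in edgeR (0.00851%, 0% and 0% of all genes passed) or in limma voom. At an unadjusted p under 0.05, 5 members were higher and 1 lower for cDC2 against cDC1 (5.17% and 3.29% of all genes), 3 and 2 for pDC against cDC1 (2.63% and 5.63%), and 1 and 2 for pDC against cDC2 (2.72% and 5.69%). In the first of these the smallest p belonged to Ifi27l2a (difference of differences 1.54 ± 0.43, adjusted p = 0.382) and Lgals3bp (1.14 ± 0.41). In the second it belonged to Gbp3 (-2.58 ± 0.66, adjusted p = 0.196) and Dhx58 (1.62 ± 0.57), and in the third to Oas2 (-2.42 ± 1.02) and Phf11b (0.80 ± 0.37, with the same shared stretches). DESeq2 called Gbp3 between pDC and cDC1 (adjusted p = 0.0361), as did edgeR with no filter on low counts (adjusted p = 0.0139).

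The genes upstream of the set were measured in the same libraries. Of 21 interferon ligand genes, 12 had no count in any library, and the other 9 held 227 counts in all 15 libraries together, at most 4.05 CPM. Ifnb1 had 21 counts in 4 libraries, too few for a comparison. Ifnar1, a receptor chain, was at 408, 407.9 and 507.1 CPM in pDC WT and 353.3, 476.7 and 426.4 CPM in pDC KO, and its averaged difference was 0.02 ± 0.15. For Ifnar2 it was 0.37 ± 0.22 and for Irf9 0.20 ± 0.20, and 0 of the 16 receptor and signalling genes passed in edgeR in any subset or on average, where 12 of 16 were positive and 1 was higher at an unadjusted p under 0.05. That gene was Ptpn6, the phosphatase SHP-1 (0.50 ± 0.17, adjusted p = 0.325). Irf7, itself interferon-induced and the factor behind most interferon-alpha transcription, was at 125.1, 135.1 and 73.2 CPM in pDC WT and 324.5, 270.8 and 309.3 CPM in pDC KO. The pDC genotypes were far apart (1.44 ± 0.28, adjusted p = 0.0865), as were those in cDC2 (1.08 ± 0.32, adjusted p = 0.166), while cDC1 overlapped (0.02 ± 0.34) and the average missed the threshold (0.85 ± 0.18, adjusted p = 0.0621).

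Another 50 interferon-stimulated genes outside the set were tested as a second list. On average 44 of 50 were positive, with a median of 0.35, and 2 passed: Ifitm2 (2.57 ± 0.44, adjusted p = 0.0171) and Ifitm3 (1.18 ± 0.23, adjusted p = 0.0363), which encode membrane proteins that restrict viral entry. Ifitm3 was at 33.3 and 43.1 CPM in cDC1 WT and 78.4 and 77.9 CPM in cDC1 KO, at 166.1 and 175.9 CPM in cDC2 WT and 359.8, 549.1 and 455.2 CPM in cDC2 KO, and at 22.9, 22.1 and 6.91 CPM in pDC WT and 36.6, 48.6 and 25.7 CPM in pDC KO. Its genotypes did not overlap in any subset. Ifitm2 was at 0, 0 and 0.68 CPM in pDC WT, so its averaged value depends on how such low counts are fitted. Trim12c, at 86.7 and 115.7 CPM in cDC2 WT and 244.1, 265.8 and 272.1 CPM in cDC2 KO, had the smallest p of the list in cDC2 (1.36 ± 0.32, adjusted p = 0.0764). Of these 50, 22 (44%) were positive in all 3 subsets. Among 10 tested genes that respond more to interferon-gamma, 8 were positive on average with a median of 0.16, and 0 passed in edgeR (1 at an unadjusted p under 0.05).

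Markers of other cells moved with genotype in part. The 8 macrophage markers summed to 94.1 to 98.2 CPM in cDC1 KO against 80.2 to 85.4 CPM in WT, to 146.9 to 178.9 against 78.4 to 107.4 CPM in cDC2, and to 135.8 to 156.1 against 97.7 to 121.8 CPM in pDC. Cd68 made up most of the sum in pDC (128.5 to 150.8 CPM in KO), where Adgre1 was at 0 in KO and Timd4 at 0 in WT. The cDC1 list did not move one way. Timd4 was there at 24.1 to 34.7 CPM in KO against 6.33 to 7.1 CPM in WT, and Mertk was higher at up to 1.02 CPM. C1qc was at 0.438 to 0.654 against 1.27 to 3.28 CPM, and Cd68 overlapped (53.4 to 58.3 against 57.9 to 69.7 CPM). In cDC2, C1qa was at 7.12 to 12.3 CPM in KO against 13.4 to 13.6 CPM in WT, and Timd4 at 36.3 to 63.9 against 6.78 to 7.53 CPM. The 9 T cell and thymocyte markers in the table summed to less in KO in cDC1 (87.1 to 152.3 against 163.7 to 198.8 CPM) and cDC2 (43.6 to 57.1 against 68.0 to 114.9 CPM). They overlapped in pDC, where Cd8b1 was the largest part, and Ptcra was at 0 in cDC1 KO and cDC2 WT. Cd3d, Cd8b1, Lck, Rag1 and Thy1 were lower in cDC1 KO and the others overlapped. Only Bcl11b (10.3 to 20.6 CPM in KO against 40.7 to 42.3 CPM in WT) and Cd3d were lower in cDC2 KO, and the others overlapped. NK cell markers, 8 in all, summed to more in cDC1 KO (51.6 to 67.9 against 27.1 to 45.3 CPM). They overlapped in the other subsets, where Klrd1 made up nearly all of the sum. Klrd1 was also the largest part in cDC1 (37.3 to 48.1 CPM in KO against 21.7 to 31.7 CPM in WT). Eomes, Gzma, Klrb1c, Klre1 and Ncr1 were higher there at no more than 5.1 CPM, and Il2rb and Prf1 overlapped. The 10 pDC markers summed to less in cDC2 KO (1020 to 1070 against 1409 to 1736 CPM) and overlapped in the other subsets. In cDC2 they did not move one way: Tcf4 was at 677.1 to 717.9 CPM in KO against 1083 to 1256 CPM in WT, Spib at 33.5 to 39.7 against 9.79 to 17 CPM, and Klk1 at 0 in KO. The 4 Y-linked genes in the table summed to 305.4 to 364 CPM in cDC2 KO against 387.1 to 395.3 CPM in WT and overlapped elsewhere. The summed lists for B cells (7 genes), monocytes and neutrophils (8) and erythroid cells (7) had overlapping genotype ranges in each subset. So did the sums for thymic epithelium and stroma (8), melanoma (6) and mature dendritic cells (8). Single genes of the last list separated, in both directions. In cDC2, Fscn1 was at 127.9 to 210.8 CPM in KO against 34.7 to 63.3 CPM in WT. Ccl17 was there at 9.27 to 34.85 against 77.45 to 216.9 CPM. In cDC1, Il12b was at 330.2 to 561.8 against 171.5 to 224 CPM, and Cd86 at 153.6 to 197 against 208.2 to 257 CPM. The part of these markers in the differences was not tested.

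Transcript length moved with the genotype difference as well. Over all genes the difference was lower for genes with a longer longest transcript in cDC2 (Spearman's rho -0.30 across 11712 genes, which are not independent) and less so in pDC (-0.18), and over the 46 members rho was -0.38 and -0.33, against -0.03 in cDC1. Ifi27l2a and Isg15 are the shortest of the members named here. With a per-library offset for length and GC content, the member medians were 0.16, 0.28 and 0.57 in cDC1, cDC2 and pDC, against -0.05, -0.11 and 0.01 for all genes, and 36, 34 and 41 members were positive (45.4%, 42.4% and 50.8% of all genes). In cDC2, 5 members, in place of 13, were then higher at an unadjusted p under 0.05, and Ifit1 was the 1 member that passed on average.

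**Figure D5:**
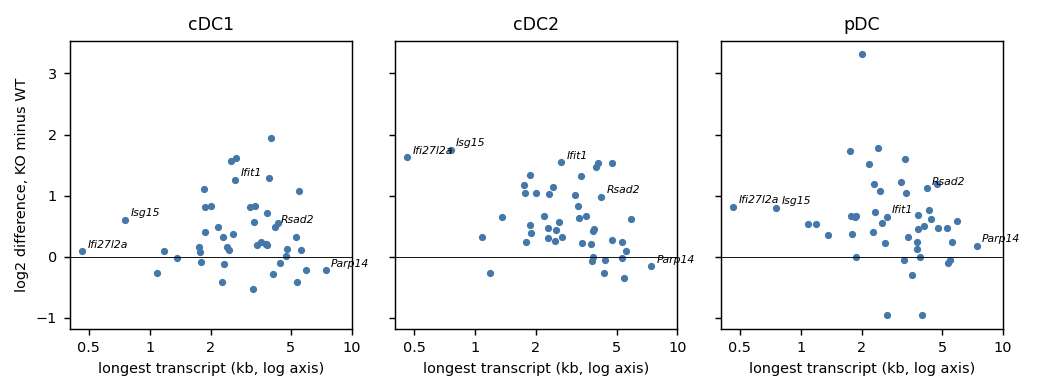
Log2 difference of KO minus WT against the length of the longest transcript (kb, log axis) for the 46 genes in each subset. In cDC2 the short genes Ifi27l2a and Isg15 are at 1.63 and 1.76 and the long gene Parp14 is at -0.16.

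Within groups, some members varied from library to library in step and others did not. After each group was centred at its mean, the correlation of a member's log2 CPM with the mean of the other members over the 15 libraries was 0.92 for Parp9 and for Parp14, 0.83 for Ifi204 and 0.80 for Ifi203. It was 0.44 for Ifit1, 0.27 for Isg15, 0.06 for Rsad2, -0.07 for Dhx58, -0.17 for Rtp4 and -0.19 for Ly6e. The genes outside the set whose levels correlated most with the mean of the members, all standardized, were Dcun1d1 (0.93), Slfn5 (0.93), Trim30d (0.91), Gpr141b (0.91), Stxbp4 (0.90), Khk (0.90), Alcam (0.89), Kdm5d (0.89), Fam208a (0.89) and Gm340 (0.885), of which Kdm5d is Y-linked and mice of both sexes were used. Slfn5 and Trim30d are themselves interferon-stimulated and stood in the second list. These values describe 15 libraries that share depth and preparation, and carry no test.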

How the data were processed

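Thymic cDC1, cDC2 and pDC of WT and KO mice were profiled by poly(A)-primed, strand-specific RNA-seq in 15 libraries of 3928164 to 12142712 counts. The deposited file holds raw counts of reads per gene, made with STAR and HTSeq on mm10 per the submitters' processing notes, which also list DESeq2 and give no versions. Gene symbols came from the GENCODE annotation of GRCm38, and promoters from RefSeq.

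Counts were tested with edgeR 4.0.16 in R 4.3.3: genes filtered by filterByExpr, TMM scaling, 1 coefficient per group over all 15 libraries, robust quasi-likelihood F-tests and Benjamini-Hochberg adjustment over 11746 genes. Gene by gene, standard errors are the log2 difference divided by the root of F. The genes left out held 0.0538% of counts. CPM used TMM library sizes. The members, gene lists and tests were chosen with earlier results of these data known. Named genes are those past the threshold, for each contrast at most 6 per direction in order of p (2 for interactions), a fixed list of 10 members (Ifit1, Ifit3, Ifit3b, Isg15, Usp18, Mx1, Oas2, Stat2, Ifi27l2a and Ly6e), and, of each other list, at most 3 per genotype contrast in order of p; further genes were named after their values were seen. In data simulated on 11746 genes, 4-fold changes were recovered in 37 of 67 genes for cDC1, 39 of 67 for cDC2 and 49 of 67 for pDC, and 2-fold changes in 1, 3 and 7 of 67, so 2-fold differences of the members were mostly below what single-subset tests detect. Alternatives were RLE scaling, DESeq2 1.42.0, limma 3.58.1 (voom with sample weights), other filters, fits on fewer subsets, a spread without robust estimation, a threshold of 0.1, length and GC offsets (mgcv 1.9.3), a replicate block and leaving out each library. No column of the table was left unused. The replicate numbers showed no pairing of KO with WT within a subset, and a pairing across subsets was not tested.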

Additional observations from a re-analysis of the deposited data

How the results depend on the processing

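The count of members passing in cDC2, reported as 1, was 0 with RLE scaling, limma voom, only the cDC2 libraries, a spread without robust estimation and the length and GC offsets, 4 with DESeq2 and with no filter, 3 at the threshold of 0.1 and 0 to 2 with 1 library left out. The cDC2 median of 0.50 was 0.40 with RLE scaling and with DESeq2, 0.28 with the offsets and 0.38 to 0.60 with 1 library left out. RLE scaling moved the median of all genes in cDC2 from 0.09 to -0.01, and the members' excess over it was 0.40 against 0.41. In pDC the count of 0 was 3 with DESeq2, 7 with no filter and 0 to 1 with 1 library left out, and the median was 0.39 to 0.63. On average the count of 4 was 7 with DESeq2 and with no filter, 1 with the offsets, 0 over cDC1 and pDC only (chosen after seeing the data) and 0 to 4 with 1 library left out. The interaction of pDC against cDC1 called 1 member with DESeq2 and 1 with no filter. With 1 library left out, the WT counts were 1 to 12 for cDC2 against cDC1, 9 to 14 for pDC against cDC1 and 16 to 27 for pDC against cDC2, and the cDC1 genotype difference was positive for 20 to 40 members with medians of -0.044 to 0.663. Counts over all genes moved as well: with DESeq2 they were 18, 220, 138 and 133 in cDC1, cDC2, pDC and on average, against 3, 14, 8 and 36. Of the recomputed log2 differences of single named genes, under the planned settings 2121 kept their call and sign, 42 moved, 26 lost their call and 50 gained one. With 1 library left out these numbers were 3276, 108, 107 and 4, and under settings chosen after seeing the data 88, 6, 6 and 0. In these numbers, moved means a changed sign of a gene that was not called. Counts and medians are not among them and were judged apart. A count moved if it changed by over 1.5 times, and a median if it changed by over 1 SD between replicates. By that rule the cDC1 median, which changed sign to -0.044 without cDC1 WT replicate 1, was kept. No value past the threshold changed sign. Depth limits Ifit3b in cDC1 and pDC, Oas2 in pDC and the ligands in every subset, where counts were too low for a comparison.

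Within a subset, the replicate numbers showed no pairing of KO with WT. Deviations of same-numbered KO and WT libraries correlated at 0.09 and -0.06 in cDC2, -0.15 in cDC1 and -0.04 to 0.02 in pDC. In a group of 2 libraries the deviations mirror each other, so cDC1 gives a single value. Same-numbered libraries of different subsets were not compared, so a pairing across subsets, as from shared mice, was not tested. With a replicate block, 0 members passed in cDC2 and 0 on average, and the cDC2 median was 0.67. A crossed block in cDC1, chosen after seeing the correlations, called 0 members and 1 of all genes.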
